A study of Saccharomyces cerevisiae with 8 samples.

Results

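The flocculin genes and their regulators were taken as 10 named genes of the 6103 with a line in the deposited expression table. They comprise 5 flocculin genes, *FLO1* (YAR050W), *FLO5* (YHR211W), *FLO9* (YAL063C), *FLO10* (YKR102W) and *FLO11* (YIR019C), and 5 genes of transcription regulators, *FLO8* (YER109C), *PHD1* (YKL043W), *TEC1* (YBR083W), *MSS11* (YMR164C) and *SFL1* (YOR140W). RNA was sequenced from 3 deletion strains and their parent, with 2 libraries per strain and 8 in all. The strains were *sin3∆*, *srb2∆* and *mig1∆* derivatives of ScY01a, in each of which a *KanMX* cassette replaces the whole open reading frame, and the wild type ScY01a, an industrial *Saccharomyces cerevisiae* haploid that the study gives as *MATa*. All were grown at 30°C in YP medium with 200 g/L glucose for 10 h to early log phase. Whether each deletion strain is more than a single transformant is not stated in the sources used here.

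Flocculins are cell wall glycoproteins that make yeast cells stick to each other or to surfaces. *FLO1*, *FLO5* and *FLO9* encode lectin-like proteins that bind mannose on neighbouring cells and cause flocculation, whereas *FLO11* encodes the adhesin known for invasive growth, pseudohyphal filaments and floating biofilms. In laboratory strains most of these genes are silent, and *FLO11* in particular is switched through a very long upstream region on which the filamentation MAP kinase route, the cAMP-dependent protein kinase and chromatin regulators act. Sin3p is the scaffold of the Rpd3p histone deacetylase complexes, Srb2p is a subunit of the head of Mediator, the complex that links transcription factors to RNA polymerase II, and Mig1p is the zinc finger repressor of glucose-repressed genes.

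In the R64 reference, all 5 flocculin genes lie toward chromosome ends. *FLO1* is at chrI:203403-208016 and *FLO9* at chrI:24000-27968, on opposite arms of chromosome I, 22.2 and 24.0 kb from the nearer end. *FLO5* is at chrVIII:525392-528619, *FLO10* at chrXI:646356-649865 and *FLO11* at chrIX:389572-393675, which are 34.0, 17.0 and 46.2 kb from an end. The 5 regulator genes lie 199.3 to 502.0 kb from an end. The coding sequences of *FLO1*, *FLO5* and *FLO9* resemble each other, which matters for how reads were shared between them, and a stretch from coding base 301 to base 390 of each, in R64, shows how closely. Capitals mark the bases at which *FLO9* differs from *FLO1*; *FLO5* is identical to *FLO1* at all 90 bases and *FLO9* at 81.
FLO1, chrI:203703-203792, plus strand: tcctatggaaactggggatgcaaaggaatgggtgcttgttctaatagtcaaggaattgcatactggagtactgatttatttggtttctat
FLO5, chrVIII:525692-525781, plus strand: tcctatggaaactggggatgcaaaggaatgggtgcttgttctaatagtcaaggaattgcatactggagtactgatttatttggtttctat
FLO9, chrI:27579-27668, minus strand: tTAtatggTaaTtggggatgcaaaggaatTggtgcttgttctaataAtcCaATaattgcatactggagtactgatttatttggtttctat
The longest identical run was 817 bases between *FLO1* and *FLO9*, 221 bases between *FLO1* and *FLO5*, and 159 bases between *FLO5* and *FLO9*. Of all 150-base windows of *FLO1*, 26.3% occur unchanged in *FLO9* and 2.24% in *FLO5*. Reads from such windows cannot be placed by sequence alone, so the split between *FLO1*, *FLO5* and *FLO9* is less certain than their sum. *FLO11* has no 50-base window in common with the other flocculin genes, and its longest run shared with *FLO1* is 12 bases.

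The stretch upstream of *FLO11* that ends before its start codon is shown because this gene had the largest difference of the set. It covers bases -380 to -81 counted from the first base of the start codon, on the minus strand of chrIX:393756-394055. Capitals mark GGAATG, which is the reverse complement of the Tec1p element CATTCC, and the TATA element TATAAA.
FLO11, upstream stretch: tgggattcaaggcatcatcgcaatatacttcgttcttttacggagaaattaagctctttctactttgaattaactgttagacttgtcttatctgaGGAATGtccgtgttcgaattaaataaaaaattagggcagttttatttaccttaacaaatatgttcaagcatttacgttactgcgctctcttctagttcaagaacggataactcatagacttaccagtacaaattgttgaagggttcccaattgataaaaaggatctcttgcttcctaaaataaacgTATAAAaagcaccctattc
TATAAA was searched on the coding strand within 250 bases of each start codon, where 28.4% of 6001 promoters hold it. It stands at -99 in *FLO11*, -97 in *FLO1*, -91 in *FLO10* and -86 in *FLO5*, and no copy was found in *FLO9*. The bases from -150 to -71 of the 3 related genes are set side by side to show this, with TATAAA in capitals.
FLO1, chrI:203253-203332, plus strand: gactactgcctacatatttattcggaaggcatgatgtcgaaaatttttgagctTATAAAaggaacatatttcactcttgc
FLO5, chrVIII:525242-525321, plus strand: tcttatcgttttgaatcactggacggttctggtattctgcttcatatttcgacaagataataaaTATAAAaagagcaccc
FLO9, chrI:28039-28118, minus strand: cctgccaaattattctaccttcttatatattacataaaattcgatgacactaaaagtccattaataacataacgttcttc
CATTCC or CATTCT, searched on both strands of the 1000 bases upstream, was present 5 times in *FLO11*, 3 times in *FLO10*, once each in *FLO5* and *FLO9* and not in *FLO1*. Such a match is common, with at least 1 in 68.7% of 5996 promoters. The Ste12p element TGAAACA occurred once in *FLO1* and in none of the other flocculin promoters, against 23.1% of promoters. The Ume6p core GCCGCC (18.4% of promoters), through which Sin3p is brought to DNA, had no match within 1000 bases of any of the 5. The Mig1p element, searched as GCGGGG or in a second form as GTGGGG, and in further forms with CCGGGG or with the variant CTGGGG, is held by 41.8% of promoters and had no match there either.

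Expression was given as RPKM, a read density scaled to gene length and library size. *SIN3*, *SRB2* and *MIG1* each had a listed value of 0 in the strain that lacks it, and 17.1 to 84.2 RPKM in all other libraries. The summed RPKM of a library was 862336 to 1150769. Steps between low values put 1 read pair at 0.0515 to 0.0775 RPKM for each kb that remained after 235 to 270 bases were taken off gene length. This would be about 12900000 to 19400000 fragments per library if TMM normalization had not rescaled the values, which was not tested. With this worth of a read pair, the 2 wild type values of *FLO9* stand for about 19 and 15 fragments and those of *FLO5* for about 15 and 29. The lowest flocculin values thus carry a large counting error. Markers of the mating type were checked: genes of α cells summed to 27.5 to 43.5 RPKM, with *STE3*, the a-factor receptor gene, at 0.352 RPKM at most. Most of that sum came from *MF(ALPHA)2* at 15.4 to 21.8 RPKM and *SAG1* at 11.2 to 18.1 RPKM, and *MF(ALPHA)1* reached 4.41 RPKM. Genes of a cells summed to 259.7 to 287.9 RPKM in *sin3∆* and 537.6 to 625.6 in *srb2∆*. They summed to 757.7 to 794.1 in *mig1∆* and 803.4 to 920.4 in ScY01a. *MFA1* and *MFA2*, which encode the a-factor pheromone, were listed at 0 in all 8. Both genes are shorter than the 235 to 270 bases taken off gene length above, so this 0 is not read as absence of RNA. The sum of a-cell genes was lowest in *sin3∆*, in which *FLO1*, *FLO5* and *FLO9* were highest, whereas *FLO11* was highest in *srb2∆*. The part of the lower sum in the flocculin differences was not tested.

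Of the 10 genes, *FLO8* had no line and is not analysed here, and *FLO10* was listed at 0 in all 8 libraries. The other 8 passed the filter of at least 1 RPKM in at least 2 libraries, as did 5628 genes in all. *FLO1*, *FLO5* and *FLO9* passed it only through the *sin3∆* and *srb2∆* libraries, in which they were higher, so the number of flocculin genes called is not evidence of its own. Differences are log2 fold changes of RPKM + 1 from limma with their standard error (SE), and calls required a fold change of 2 or more together with a Benjamini-Hochberg adjusted p, over all genes, no higher than 0.05. In these bulk cultures, more cells that express a gene and more RNA per cell cannot be told apart.

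*FLO11* had 65.8 and 71.4 RPKM in *srb2∆*, 4.54 and 3.97 RPKM in *sin3∆*, 1.51 and 1.10 RPKM in *mig1∆*, and 1.47 and 1.21 RPKM in ScY01a. Both *srb2∆* libraries were far above all others, both *sin3∆* libraries stood between, and *mig1∆* and ScY01a overlapped. In *srb2∆* the mean of 68.6 ± 3.99 RPKM was 51.3 times the 1.34 ± 0.18 RPKM of ScY01a (SD, n = 2 each), with a log2 fold change of 4.90 (SE 0.14, limma adjusted p = 2.516e-07). This was the 11th largest of the 5628 values of that comparison. In *sin3∆* the mean of 4.26 ± 0.41 RPKM was 3.18 times that of ScY01a, with a log2 fold change of 1.17 (SE 0.14, limma adjusted p = 0.000196). *mig1∆* differed from ScY01a by -0.02 (SE 0.14, limma adjusted p = 0.927). Set within each library, *FLO11* lay above 66.5% and 68.7% of the tested genes in *srb2∆*, above 5.70% and 5.42% in *sin3∆*, above 2.49% and 1.79% in *mig1∆* and above 2.36% and 2.29% in ScY01a. The fold change in *srb2∆* was therefore that of a gene near the bottom of the expressed range in ScY01a and above the median gene in the deletion strain.

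**Figure D1:**
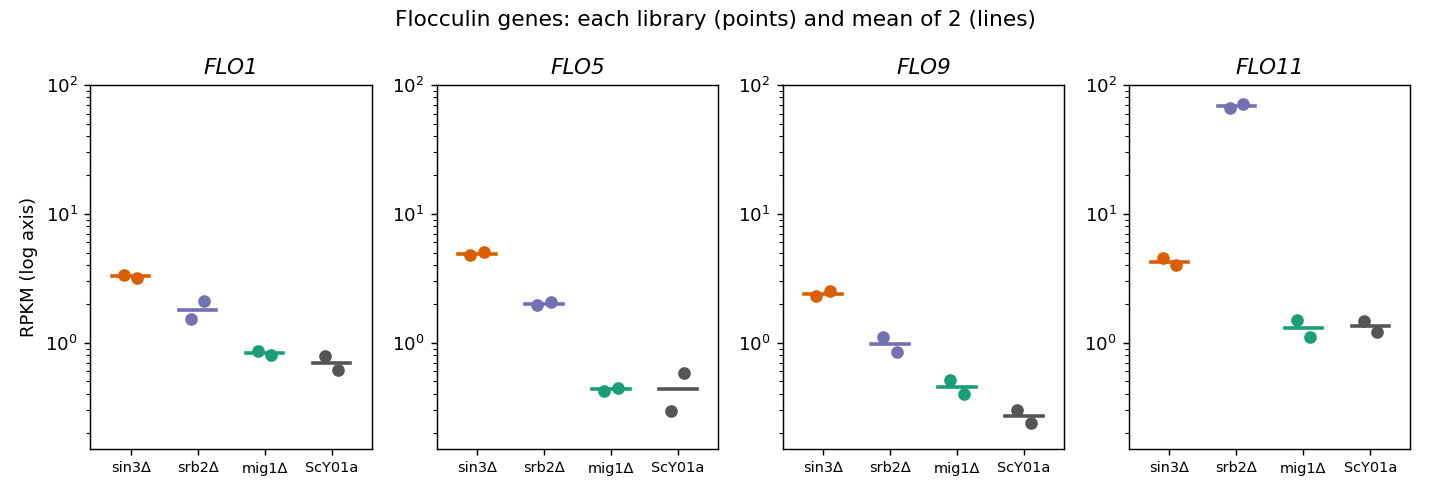
RPKM on a log axis of *FLO1*, *FLO5*, *FLO9* and *FLO11* in the 2 libraries (points) and their mean (line) of *sin3∆*, *srb2∆*, *mig1∆* and ScY01a. *FLO11* lies at 65.8 and 71.4 RPKM in *srb2∆*, whereas *FLO1*, *FLO5* and *FLO9* are highest in *sin3∆* in these deposited values.

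The mannose-binding flocculins followed another order in the deposited values. *FLO5* had 4.75 and 5.09 RPKM in *sin3∆*, 1.95 and 2.07 RPKM in *srb2∆*, 0.422 and 0.447 RPKM in *mig1∆*, and 0.293 and 0.581 RPKM in ScY01a. *FLO1*, the best known determinant of flocculation, had 3.37 and 3.17 RPKM in *sin3∆*, 1.52 and 2.10 RPKM in *srb2∆*, 0.863 and 0.808 RPKM in *mig1∆*, and 0.785 and 0.609 RPKM in ScY01a. *FLO9* had 2.29 and 2.52 RPKM in *sin3∆*, 1.10 and 0.844 RPKM in *srb2∆*, 0.510 and 0.399 RPKM in *mig1∆*, and 0.302 and 0.238 RPKM in ScY01a. Both *sin3∆* libraries were above both *srb2∆* libraries for each of the 3 genes, and these above all *mig1∆* and ScY01a libraries.

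In *sin3∆* over ScY01a the log2 fold change was 2.05 (SE 0.19, limma adjusted p = 5.0e-05) for *FLO5*, 1.42 (SE 0.21, limma adjusted p = 0.000614) for *FLO9* and 1.33 (SE 0.20, limma adjusted p = 0.00056) for *FLO1*. As ratios of mean RPKM these are 11.3, 8.91 and 4.69, since adding 1 RPKM draws in the fold change of such low genes. With *FLO11*, 4 of the 8 tested genes rose in *sin3∆*, where 17.7% of all tested genes did. Because of how *FLO1*, *FLO5* and *FLO9* passed the filter, nothing is read from this count. In *srb2∆* over ScY01a, *FLO5* rose by 1.07 (SE 0.19, limma adjusted p = 0.0016), whereas *FLO1* with 0.72 (limma adjusted p = 0.0121) and *FLO9* with 0.63 (limma adjusted p = 0.0296) stayed under a fold change of 2. With *FLO11*, 2 of the 8 rose in *srb2∆*, where 15% of all tested genes did. The call of *FLO5* in *srb2∆* was lost without replicate 2 of ScY01a, at 0.93. Quantile normalization put *FLO1* at 1.18, *FLO5* at 1.54 and *FLO9* at 0.94 in *srb2∆*, so that *FLO1* then passed a fold change of 2. A smaller pseudocount of 0.1 RPKM put *FLO1* at 1.25 and *FLO9* at 1.53 in *srb2∆*, and a larger one of 5 RPKM took the 4 flocculin genes in *sin3∆* to between 0.49 and 0.87, all then under a fold change of 2.

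Since identical stretches may divide reads among them, *FLO1*, *FLO5* and *FLO9* were also summed into 1 entry. The sum was 10.4 and 10.8 RPKM in *sin3∆*, 4.58 and 5.01 RPKM in *srb2∆*, 1.80 and 1.65 RPKM in *mig1∆*, and 1.38 and 1.43 RPKM in ScY01a. Fitted with all genes, its log2 fold change over ScY01a was 2.27 in *sin3∆* (SE 0.13, limma adjusted p = 4.531e-06), 1.27 in *srb2∆* (SE 0.13, limma adjusted p = 8.96e-05) and 0.18 in *mig1∆* (SE 0.13, limma adjusted p = 0.415). The sum in *sin3∆* was higher than in *srb2∆* by 1.0 (SE 0.13, limma adjusted p = 0.000545), a value at the threshold. Under quantile normalization, tried for the sum after the data had been seen, this difference was 0.31 (SE 0.15, limma adjusted p = 0.107) and no longer called, so whether the sum is higher in *sin3∆* than in *srb2∆* depends on the normalization. *FLO11* was lower in *sin3∆* than in *srb2∆* in either case, with -3.73 (SE 0.14, limma adjusted p = 1.3e-06) as deposited and -3.92 under quantile normalization. As a share of the summed RPKM of the 4 expressed flocculin genes, *FLO11* took 93.5% and 93.4% in *srb2∆*, 30.4% and 26.9% in *sin3∆*, 45.6% and 40.0% in *mig1∆*, and 51.5% and 45.8% in ScY01a. Flocculin RNA was thus almost wholly that of *FLO11* in *srb2∆* and mostly that of *FLO5*, *FLO1* and *FLO9* in *sin3∆*.

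Of the regulators, Tec1p and Mss11p are activators of *FLO11*, Phd1p is an activator of filamentous growth, and Sfl1p is a repressor of flocculin genes that the protein kinase A subunit Tpk2p relieves. *TEC1* had 13.7 and 14.0 RPKM in *sin3∆*, 53.9 and 61.1 RPKM in *srb2∆*, 37.4 and 41.3 RPKM in *mig1∆*, and 52.8 and 58.3 RPKM in ScY01a. It fell by 1.93 on the log2 scale in *sin3∆* (SE 0.09, limma adjusted p = 2.1e-06), to 24.9% of the ScY01a mean. In *srb2∆*, in which *FLO11* was highest, its libraries overlapped those of ScY01a, with a difference of 0.05 (SE 0.09, limma adjusted p = 0.67). *MSS11* had 9.58 and 9.96 RPKM in *sin3∆*, 13.69 and 13.72 RPKM in *srb2∆*, 38.5 and 28.2 RPKM in *mig1∆*, and 29.7 and 29.1 RPKM in ScY01a. It was lower in both strains with raised *FLO11*: it fell by 1.50 in *sin3∆* (SE 0.14, limma adjusted p = 4.1e-05) and fell by 1.05 in *srb2∆* (SE 0.14, limma adjusted p = 0.000285). Under quantile normalization the value in *srb2∆* was -0.89 and under a pseudocount of 5 RPKM it was -0.88, both under a fold change of 2. In all, 6 of the 8 were called in *sin3∆* and 3 in *srb2∆*, and of all tested genes 29.9% were called in *sin3∆* and 29.9% in *srb2∆*. *TEC1* and *MSS11* were the 2 of 8 tested genes that fell in *sin3∆*, where 12.2% of all tested genes did. *MSS11* was the 1 of 8 in *srb2∆*, where 14.9% did.

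**Figure D2:**
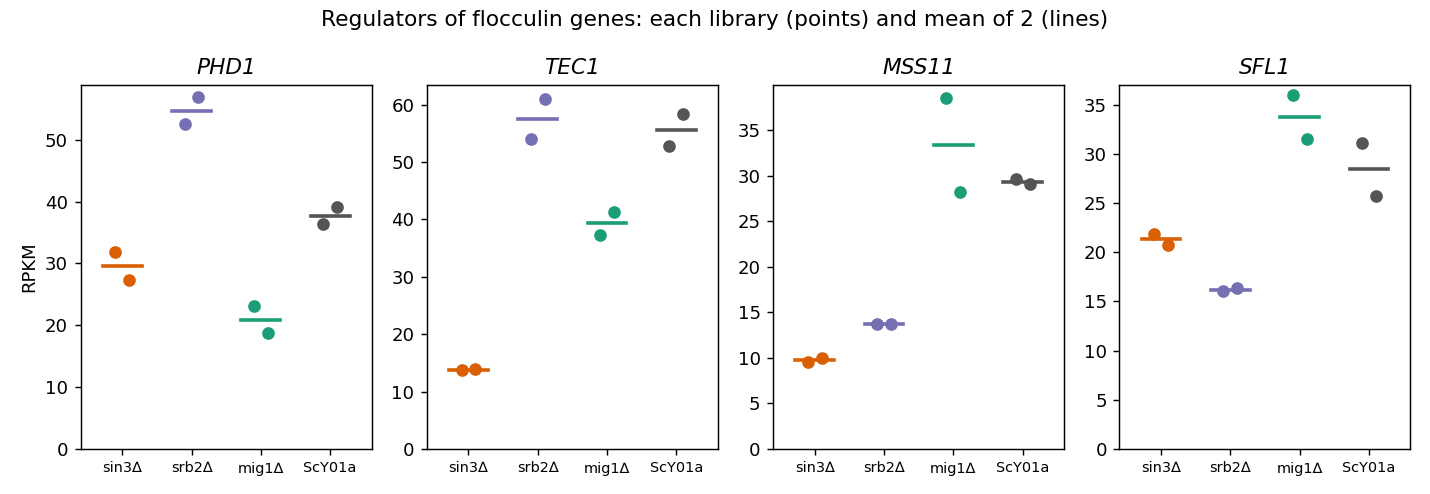
RPKM of *PHD1*, *TEC1*, *MSS11* and *SFL1* in the 2 libraries (points) and their mean (line) of *sin3∆*, *srb2∆*, *mig1∆* and ScY01a, on linear axes that start at 0. *TEC1* at 13.7 and 14.0 RPKM in *sin3∆* is below all other libraries, and *MSS11* is lower in *sin3∆* and *srb2∆* than in *mig1∆* and ScY01a.

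*PHD1* had 31.8 and 27.3 RPKM in *sin3∆*, 52.5 and 56.9 RPKM in *srb2∆*, 23.1 and 18.7 RPKM in *mig1∆*, and 36.3 and 39.1 RPKM in ScY01a. No strain passed a fold change of 2 against ScY01a: the log2 values were -0.34 in *sin3∆* (limma adjusted p = 0.0335), 0.52 in *srb2∆* (limma adjusted p = 0.0055) and -0.83 in *mig1∆* (limma adjusted p = 0.0066). In order of level, *srb2∆* was followed by ScY01a, *sin3∆* and *mig1∆*, and the groups did not overlap. *SFL1* had 21.9 and 20.7 RPKM in *sin3∆*, 16.1 and 16.4 RPKM in *srb2∆*, 36.0 and 31.6 RPKM in *mig1∆*, and 31.1 and 25.7 RPKM in ScY01a. The repressor gene had log2 values of -0.39 in *sin3∆* (limma adjusted p = 0.0134) and -0.77 in *srb2∆* (limma adjusted p = 0.000487), again within a fold change of 2.

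*FLO8* encodes an activator of *FLO1* and *FLO11* on which protein kinase A acts. It has no value here, but the reference sequence against which reads were mapped bears on it, since R64 annotates the locus at chrV:375215-377614 as a pseudogene. Its reading frame meets a stop codon at codon 142 of 800. The bases around it, coding bases 394 to 456, are shown with the stop codon in capitals. The allele that ScY01a carries is not analysed here.
FLO8, chrV:377159-377221, minus strand: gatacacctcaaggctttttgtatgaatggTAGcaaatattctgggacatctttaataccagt

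In *mig1∆* none of the 8 tested genes was called by limma against ScY01a, where 1.65% of all tested genes were, and 2 of the 8 had an unadjusted p under 0.05. These were *PHD1*, given above, and *TEC1* at -0.49 (SE 0.09, limma adjusted p = 0.0187), which was lower in both *mig1∆* libraries than in both of ScY01a. The 4 flocculin genes differed by -0.02 to 0.20 on the log2 scale, with SE of 0.14 to 0.21. For *FLO9* the 2 *mig1∆* libraries lay above those of ScY01a, at a log2 fold change of 0.20 (limma adjusted p = 0.589).

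**Figure D3:**
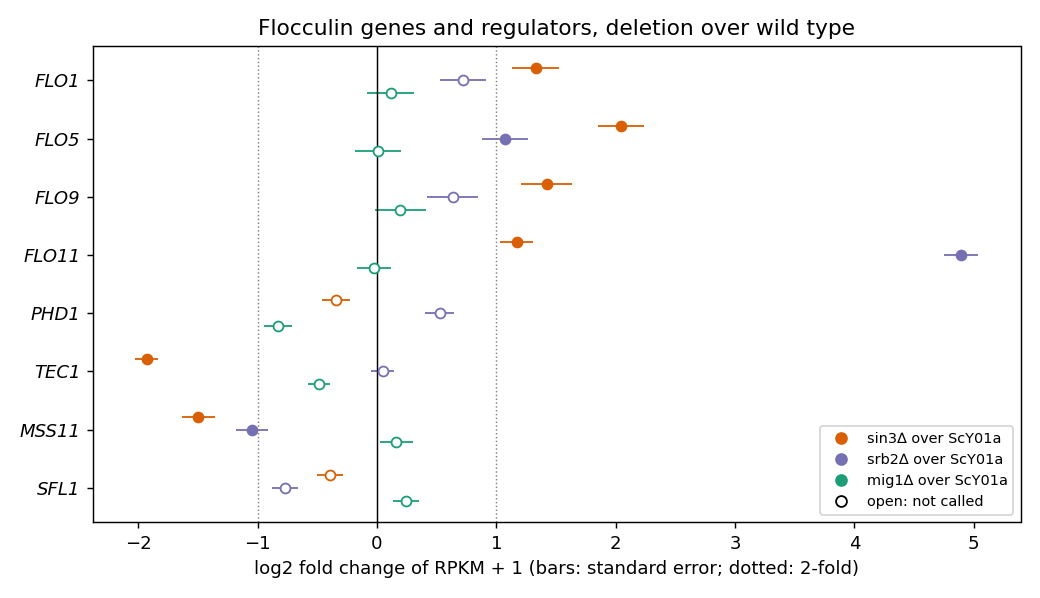
Log2 fold change of RPKM + 1 with its standard error for the 8 tested genes in *sin3∆*, *srb2∆* and *mig1∆* over ScY01a. Filled points passed a fold change of 2 (dotted lines) and an adjusted p of 0.05. *FLO11* in *srb2∆* lies at 4.90, and no *mig1∆* point is filled.

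The deletion strains were also set against each other. In *sin3∆* over *srb2∆*, 2 of the 8 fell, where 2.95% of all tested genes did: *FLO11*, as given above, and *TEC1* at -1.98 (SE 0.09, limma adjusted p = 3.8e-06). The values of *FLO5* at 0.97 (SE 0.19, limma adjusted p = 0.0038), *FLO9* at 0.79 and *FLO1* at 0.61 stayed under a fold change of 2, as did *PHD1* at -0.87. The ratios of mean RPKM were 2.44 for *FLO5*, 2.47 for *FLO9* and 1.81 for *FLO1*. Under quantile normalization the log2 values were 0.34 for *FLO5*, 0.43 for *FLO9* and 0.03 for *FLO1*, with limma adjusted p of 0.185, 0.124 and 0.912. In *sin3∆* over *mig1∆*, 6 of the 8 were called, as were 26.8% of all tested genes, of which 4 rose (15%) and 2 fell (11.9%). These were *FLO5* at 2.04, *FLO9* at 1.23, *FLO1* at 1.22 and *FLO11* at 1.19, and *MSS11* at -1.66 and *TEC1* at -1.44. In *srb2∆* over *mig1∆*, 3 rose (11% of all tested genes), namely *FLO11* at 4.92, *PHD1* at 1.35 and *FLO5* at 1.07, and 2 fell (14.7%), namely *MSS11* at -1.21 and *SFL1* at -1.01. Both of these falls were lost without replicate 1 of *mig1∆*, at -0.99 and -0.92. These comparisons share libraries with those against ScY01a and are not independent of them.

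The filamentation MAP kinase route, which runs from the mucin Msb2p through the kinases Ste11p, Ste7p and Kss1p to Ste12p, had 12 genes tested. In *sin3∆*, *DIG2*, whose product inhibits Ste12p, rose by 1.22 and *MSB2* fell by 1.06 (limma adjusted p = 4.41e-05 and 9.14e-05). *DIG2* had 60.7 and 57.6 RPKM in *sin3∆*, against 22.1 and 27.8 RPKM in ScY01a, and *MSB2* had 18.1 and 16.3 RPKM, against 41.5 and 32.9 RPKM in ScY01a. These are 1 of 12 in either direction, where 17.7% of all tested genes rose and 12.2% fell. None of the 12 was called by limma in *srb2∆* or *mig1∆*, where 29.9% and 1.65% of all tested genes were. Of the 12, 8 and 2 were under an unadjusted p of 0.05. For all such counts in the text the share over all tested genes is not given, and no effect is read from them. The median log2 fold change was -0.13 in *sin3∆*, 0.21 in *srb2∆* and -0.0037 in *mig1∆*, beside 0.01, -0.01 and 0.03 over all tested genes. *STE12* itself had 19.1 and 20.5 RPKM in *sin3∆*, against 29.5 and 33.5 RPKM in ScY01a, with a log2 value of -0.64 within a fold change of 2.

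The cAMP route acts through the catalytic subunits of protein kinase A, among them Tpk2p, and their inhibitor Bcy1p, and had 14 genes tested. In *srb2∆*, 2 rose and 4 fell, where 15% of all tested genes rose and 14.9% fell. *TPK2*, whose product activates filamentous growth, had 23.1 and 20.5 RPKM in *srb2∆*, against 62.7 and 54.7 RPKM in ScY01a, and fell by 1.39 (SE 0.11, limma adjusted p = 1.65e-05). *RAS1*, which encodes a GTPase that stimulates adenylate cyclase, rose by 1.33, and *PDE2*, which encodes the high-affinity cAMP phosphodiesterase, rose by 1.30. *PDE1* at -1.27 and *BCY1* at -1.12, which also fell, encode the low-affinity phosphodiesterase and the inhibitory subunit. The genes that fell thus include a catalytic subunit, its inhibitor and an enzyme that removes cAMP. In *sin3∆* 1 of the 14 fell, where 12.2% of all tested genes did: *GPA2*, which encodes the Gα protein of the glucose receptor, at -1.11. None was called by limma in *mig1∆*, where 1.65% of all tested genes were, with 5 under an unadjusted p of 0.05. The medians were -0.13 in *sin3∆*, 0.11 in *srb2∆* and 0.03 in *mig1∆*.

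Among 12 further transcription regulators known at flocculin promoters, 1 rose and 4 fell in *sin3∆*, and 3 rose and 4 fell in *srb2∆*. Of all tested genes, 17.7% rose and 12.2% fell in *sin3∆*, and 15% rose and 14.9% fell in *srb2∆*. *NRG2*, which encodes a zinc finger repressor of filamentous growth, had 14.6 and 12.8 RPKM in *sin3∆* and 33.5 and 41.4 RPKM in *srb2∆*, against 127.4 and 158.1 RPKM in ScY01a. Its log2 fold changes were -3.28 (SE 0.14, limma adjusted p = 1.36e-06) and -1.90 (SE 0.14, limma adjusted p = 1.64e-05). *MGA1*, which encodes a protein related to heat shock factor, had 14.6 and 24.0 RPKM in *sin3∆* and 59.6 and 59.2 RPKM in *srb2∆*, against 144.1 and 107.8 RPKM in ScY01a, and fell by 2.67 and 1.06. *MIT1*, whose product activates *FLO11*, had 12.08 and 12.12 RPKM in *sin3∆* and 22.2 and 21.0 RPKM in *srb2∆*, against 51.4 and 44.0 RPKM in ScY01a, and fell by 1.89 and 1.11. *RME1*, another activator of *FLO11*, fell in *srb2∆* by 1.89, with 36.5 and 37.2 RPKM against 139.1 and 138.7 RPKM in ScY01a, and had -0.85 in *sin3∆*. *SOK2* fell by 1.27 in *sin3∆*. Genes that rose were *ASH1* with 1.41 in *sin3∆* and 1.35 in *srb2∆*, and, in *srb2∆*, *TUP1* with 1.49, which encodes a general corepressor, and *HMS1* with 1.15. None of the 12 was called by limma in *mig1∆*, where 1.65% of all tested genes were, with 8 under an unadjusted p of 0.05. The medians were -0.30 in *sin3∆*, 0.23 in *srb2∆* and -0.08 in *mig1∆*.

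**Figure D4:**
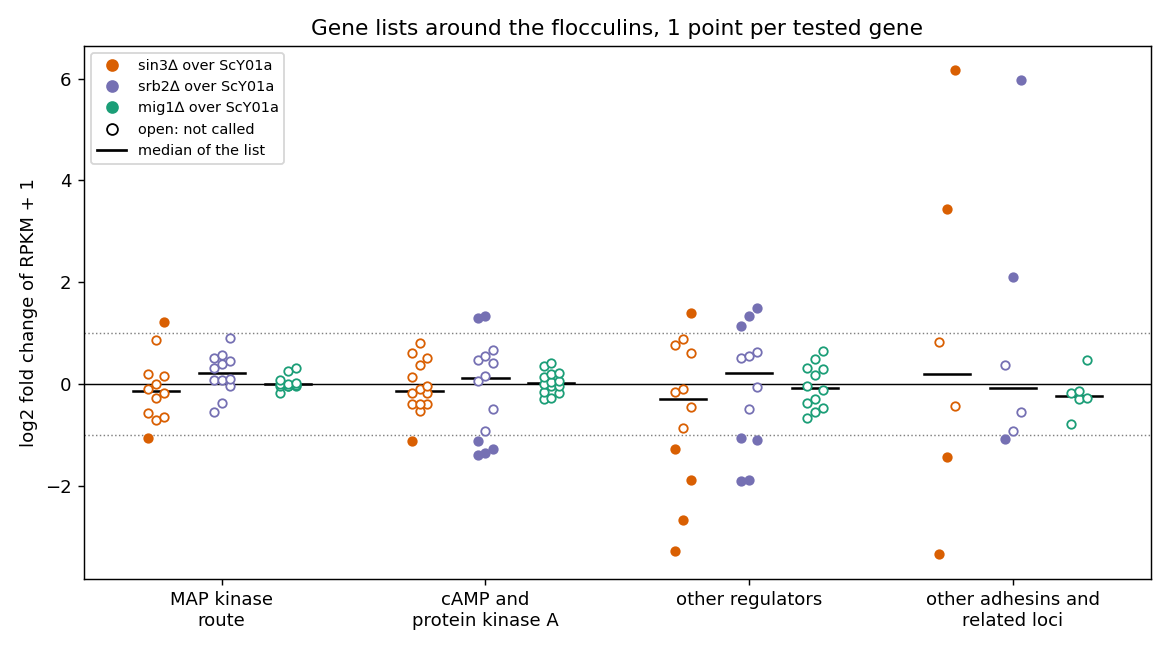
Log2 fold change of RPKM + 1 for each tested gene of 4 lists, in *sin3∆*, *srb2∆* and *mig1∆* over ScY01a, with filled points for called genes and a black line at the median of the list. The medians lie between -0.30 and 0.23, and the highest points are *BSC1* at 6.17 in *sin3∆* and 5.98 in *srb2∆*.

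Other adhesin genes and loci related to flocculins in sequence were 9, of which 6 were tested. In *sin3∆* 2 rose and 2 fell, where 17.7% and 12.2% of all tested genes did, and in *srb2∆* 2 rose and 1 fell, where 15% and 14.9% did. *YHR213W*, a fragment near *FLO5*, was listed at 0 in all libraries, and *YAR061W* and *YAR062W* are not analysed here. *BSC1*, which encodes a protein similar to Flo11p, had 191.2 and 203.8 RPKM in *sin3∆*, 173.4 and 173.6 RPKM in *srb2∆*, 1.36 and 1.20 RPKM in *mig1∆*, and 1.72 and 1.81 RPKM in ScY01a. The log2 fold change was 6.17 in *sin3∆* (SE 0.08, limma adjusted p = 1.89e-08) and 5.98 in *srb2∆* (SE 0.08, limma adjusted p = 1.36e-08). *sin3∆* and *srb2∆* differed by 0.19 for *BSC1* (SE 0.08, limma adjusted p = 0.0799), whereas *FLO11* in *sin3∆* was at 6.21% of its mean in *srb2∆*. *BSC1* and *FLO11* have no identical run longer than 20 bases in R64; how reads of the ScY01a alleles aligned was not tested. *YAL065C*, a short locus on the same chromosome arm as *FLO9* and similar to it, had 22.8 and 16.9 RPKM in *sin3∆*, 4.13 and 12.1 RPKM in *srb2∆*, 1.74 and 1.52 RPKM in *mig1∆*, and 0.837 and 0.971 RPKM in ScY01a. It rose by 3.44 in *sin3∆* (SE 0.39, limma adjusted p = 0.000143) and by 2.11 in *srb2∆* (SE 0.39, limma adjusted p = 0.00197), and its values are uncertain because 208 of its bases occur unbroken in *FLO9*. The agglutinin genes of a cells went the other way. *AGA1*, which encodes the anchor subunit, fell by 3.34 in *sin3∆* and by 1.08 in *srb2∆*, with 6.38 and 6.27 RPKM in *sin3∆* and 33.1 and 35.2 RPKM in *srb2∆*, against 78.6 and 68.3 RPKM in ScY01a. *AGA2*, which encodes the binding subunit, fell in *sin3∆* by 1.43 (SE 0.33), beside the lower sum of a-cell genes given above, a list to which it belongs. It had 100.6 and 86.0 RPKM in *sin3∆*, 184.6 and 97.3 RPKM in *srb2∆*, and 191.4 and 333.6 RPKM in ScY01a. Its values are uncertain, since the gene is about as short as the 235 to 270 bases taken off gene length. None of the 6 was called by limma in *mig1∆*, where 1.65% of all tested genes were, with 2 under an unadjusted p of 0.05. The medians were 0.20 in *sin3∆*, -0.08 in *srb2∆* and -0.22 in *mig1∆*.

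The surroundings of *FLO11* were examined because noncoding RNAs are transcribed across its upstream region. *ICR1* at chrIX:393884-397082 runs on the strand of *FLO11* and ends 208 bases from it, and *PWR1* at chrIX:395999-396939 overlaps *ICR1* on the other strand. *ICR1*, whose transcription is known to repress *FLO11*, had 6.91 and 6.99 RPKM in *sin3∆*, 3.29 and 3.58 RPKM in *srb2∆*, 4.89 and 3.90 RPKM in *mig1∆*, and 6.11 and 4.90 RPKM in ScY01a. It was called in none of the 3 by limma, with log2 fold changes of 0.30 (limma adjusted p = 0.115), -0.55 (limma adjusted p = 0.0132) and -0.27 (limma adjusted p = 0.287), of which 1 had an unadjusted p under 0.05. Both *srb2∆* libraries were below all others. *PWR1*, known to oppose *ICR1*, was listed at 0 in the second library of every strain and at 0.273 to 2.11 RPKM in the first. Whether reads were counted by strand is not stated in the sources used here, so overlapping and antisense reads could not be told apart.

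Inside *ICR1* and on the same strand lies *YIR020C*, a frame of 303 bases at chrIX:394255-394557, 579 bases upstream of *FLO11*, which was picked out after its values were seen. It had 7.84 and 6.76 RPKM in *sin3∆* and 1.55 and 0.657 RPKM in *srb2∆*. It was listed at 0 in both *mig1∆* libraries, and at 0.009 RPKM and 0 in ScY01a. Because the frame is short, these values stand for about 7 and 6 fragments in *sin3∆*, 1 and 0 in *srb2∆*, and 0 in each *mig1∆* and ScY01a library, and it passed the filter only through libraries in which it was high. No p-value is given for it, and no order between *sin3∆* and *srb2∆* is read from so few fragments, although the counts of neighbouring genes below include it.

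Within 20 kb of the start of *FLO11*, 23 other genes were tested. In *srb2∆* 5 rose and 2 fell, where 15% and 14.9% of all tested genes did, with values of -1.36 to 1.80, all below the 4.90 of *FLO11*. In *sin3∆* 6 rose and 2 fell, where 17.7% and 12.2% of all tested genes did, with values of -1.30 to 3.04. The 3.04 is that of *YIR020C*, which rests on few fragments as given above. It is counted among the 6 that rose and, at 1.03, among the 5 in *srb2∆*. Apart from it the highest value in *sin3∆* was 2.44, for *DAL1*, so that *FLO11* at 1.17 still lay within the range of its surroundings. In *mig1∆* none was called by limma, with values of -0.37 to 0.28. The same windows around the other flocculin genes held 8 tested genes for *FLO1*, 10 for *FLO5* and 12 for *FLO9*. In *sin3∆* 2 rose and 2 fell around *FLO1*, 4 rose and 1 fell around *FLO5*, and 3 rose and 3 fell around *FLO9*. Their values ran from -5.50 to 7.10, from -1.46 to 2.05 and from -3.37 to 3.44, in that order. The extremes around *FLO1* were *UIP3* at 7.10 and *KTD1* at -5.50. These 2 genes were at 7.36 and -5.50 in *srb2∆* and at -0.09 and 0.03 in *mig1∆*. Whether the strains differ in DNA from ScY01a there was not tested. The window of *FLO10* held 6, of which 3 rose in *sin3∆*, while *FLO10* itself was listed at 0.

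**Figure D5:**
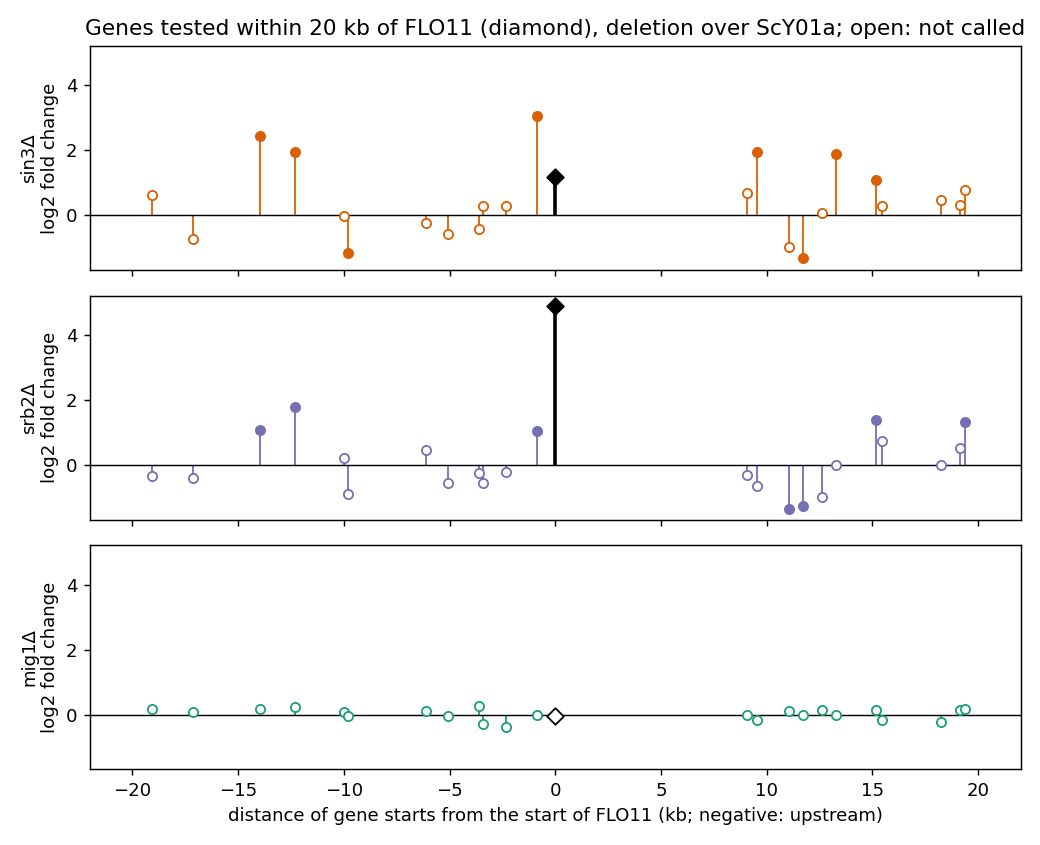
Log2 fold change of RPKM + 1 in *sin3∆*, *srb2∆* and *mig1∆* over ScY01a for the 23 tested genes within 20 kb of *FLO11*, by distance of the gene starts in kb, with *FLO11* as a black diamond and filled symbols for called genes. In *srb2∆* the diamond at 4.90 stands above the highest other gene at 1.80, and in *sin3∆* the diamond at 1.17 does not.

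The genes whose log2 values followed *FLO11* most closely over the 8 libraries were *CMS1* (Pearson r = 0.995), *RVB1* (0.995) and *INA1* (0.993). *INA1* averaged 62.4 ± 2.90 RPKM in *srb2∆*, 14.1 ± 2.11 in *sin3∆*, 8.54 ± 0.54 in *mig1∆* and 6.72 ± 0.88 in ScY01a (SD, n = 2 each). As for *FLO11*, *srb2∆* was highest and *sin3∆* next, with a smaller range. *INA1* was higher in *mig1∆* than in ScY01a, which overlapped for *FLO11*. For *FLO1* the closest were *ZRT3* (0.996), *SCC2* (0.994) and *KIP2* (0.993). *SCC2*, which encodes the loader of cohesin, averaged 13.7 ± 0.42 RPKM in *sin3∆*, 7.30 ± 0.60 in *srb2∆*, 3.47 ± 0.41 in *mig1∆* and 3.16 ± 0.53 in ScY01a. The 8 libraries form 4 strains, so high correlations are frequent: 166 genes reached 0.95 with *FLO11* and 228 with *FLO1*. They describe a pattern over the strains that many genes share, and not an exact order of all of them.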

How the data were processed

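RNA-seq of 8 libraries, 2 per strain, was grouped by the labels. Per their notes and methods, the authors aligned reads with Bowtie2 and quantified genes of R64 with RSEM, and they deposited RPKM values that the table's name gives as TMM-normalized. Of 6106 lines, 3 were empty and are not reported here, and 6019 matched an R64 locus. The other 3 deposited tables hold the authors' own DESeq2 comparisons and were not used. Raw counts were not used here; depth was read from steps between low values, of which 66.7% to 87.1% per library lay within 0.15 of a whole fragment number, against 30% by chance, and served only to describe counting error.

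Genes with at least 1 RPKM in 2 libraries were kept. Values of log2(RPKM + 1) from the 4 strains were fitted together with limma 3.58.1 (R 4.3.3, trended prior, 4 residual degrees of freedom), and p-values were adjusted over 5628 genes in each of 6 comparisons. The fit was tested on simulated data. The labels do not say that libraries came from separate cultures, so p-values measure only the spread between them, which may be technical. Members and lists were chosen with earlier results of these data known. All members are named, and of each list up to 4 called genes with the largest change in any deletion over wild type; other genes were named after their values were seen. Results of 1 list gene are not reported here. Sequences were read from R64 with Python 3.11.15 and biopython 1.88.

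Alternatives were median-ratio and quantile normalization, no filter or one at 10 RPKM, a pseudocount of 0.1 or 5, an untrended prior, fits of 2 strains alone, no fold threshold, *FLO1*, *FLO5* and *FLO9* as 1 entry, each library left out, and a replicate block.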

Additional observations from a re-analysis of the deposited data

How the results depend on the processing

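No member changed sign among calls under any alternative. Counts of called members moved with the pseudocount, the filter and the fold threshold. With a pseudocount of 5 RPKM the count was 2 in *sin3∆* and 1 in *srb2∆* over ScY01a, 2 in *sin3∆* over *mig1∆* and 3 in *srb2∆* over *mig1∆*, instead of 6, 3, 6 and 5; with 0.1 RPKM it was 5 in *srb2∆* over ScY01a and 4 in *sin3∆* over *srb2∆*, instead of 3 and 2. A filter at 10 RPKM removed *FLO1*, *FLO5* and *FLO9* and left 3 called in *sin3∆* over both ScY01a and *mig1∆*. Without a fold threshold the counts were 7 in *srb2∆* and 2 in *mig1∆* over ScY01a and 8 in *sin3∆* over *srb2∆*, instead of 3, 0 and 2. With each library left out in turn the counts were 6 to 6 in *sin3∆*, 2 to 3 in *srb2∆* and 0 to 0 in *mig1∆* over ScY01a, 2 to 3 in *sin3∆* over *srb2∆*, 6 to 6 in *sin3∆* over *mig1∆*, and 3 to 5 in *srb2∆* over *mig1∆*, where replicate 1 of *mig1∆* gave the 3. Other than as said here for the filter and the threshold, the cause was not tested. Across settings other than a left-out library, 420 of 460 member values stayed on the same side of the thresholds, 15 lost a call and 25 gained one. Quantile normalization moved the median of all genes in *sin3∆* over *srb2∆* to -0.12 and the share of higher calls there to 66.7%, instead of 80.1%. It also took the sum of *FLO1*, *FLO5* and *FLO9* there to 0.31, instead of 1.0, which ended its call.

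Deviations of same-numbered libraries correlated at 0.061 for *srb2∆* with ScY01a and at 0.016 for *sin3∆* with *mig1∆*, so these numbers showed no pairing there. The first libraries of all strains were not compared with the second. The bases taken off gene length when depth was read were 235 to 245 in the first libraries and 255 to 270 in the second. *PWR1* was listed at 0 in every second library and above 0 in every first. A batch shared across all strains was not tested. With the replicate block, called genes were 1684 in *srb2∆* over ScY01a and 1516 in *sin3∆* over *mig1∆*, instead of 1681 and 1511, and 3 and 6 members were called, as without it.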
